A study of Mus musculus with 6 samples.

Results

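The TNF and death receptor signalling genes described here are 10 genes, chosen by symbol among the 54752 genes counted in the series. They are the ligands Tnf and Tnfsf10, the receptors Tnfrsf1a, Tnfrsf1b, Fas and Tnfrsf12a, the initiator caspase Casp8, the kinases Ripk1 and Ripk3, and Mlkl. All 10 were found in the count tables. RNA was taken from the whole right hippocampus of male wild-type C57BL/6 mice (C57BL/6 J in the study's methods), with a time label of 14 weeks, which the study's sample list gives as age, at 3 weeks after surgery, with 1 library per mouse. Mice carry the replicate numbers of the labels. In the headers of the count tables, BCAS mice 1, 2 and 3 have the numbers 2, 3 and 4. In BCAS mice (n = 3) both common carotid arteries were narrowed with wire microcoils, the narrower one on the right, the side of the sampled hippocampus. Sham mice (n = 3) had the same operation without microcoils. Only mice that survived the operation were available, and whole tissue was sequenced, so each value is an average over neurons, glia, vessels and blood-derived cells. In such tissue, fewer or more cells of a type cannot be told apart from less or more RNA per cell.

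TNF is a cytokine made mainly by microglia and macrophages in the brain, as a membrane protein that a protease can release. TNF receptor 1 (Tnfrsf1a) and Fas carry an intracellular death domain, whereas TNF receptor 2 (Tnfrsf1b) and the TWEAK receptor (Tnfrsf12a) do not. At TNF receptor 1, the adaptor TRADD, TRAF proteins, cIAP ubiquitin ligases and RIPK1 assemble a complex that turns on NF-kB. When this arm is blocked, RIPK1 and FADD engage caspase-8 and the cell undergoes apoptosis. If caspase-8 is also held back, RIPK1 engages RIPK3, which phosphorylates MLKL, and MLKL then breaches the cell membrane in necroptosis.

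The promoters of the members that held a searched motif are shown here, since all 10 genes were higher in BCAS mice and the study concerns interferon signalling. RefSeq start sites gave 11 windows for the 10 genes, each running from 250 bases before to 50 bases after a start (GRCm38.p6, the build called mm10). Both strands were searched for the interferon-stimulated element core (GAAA, any 2 bases, GAAA), the STAT-binding GAS element TTCNNNGAA and the NF-kB consensus. Capitals mark every match. Each printed sequence runs 5′ to 3′ on the strand of its gene and ends 20 bases after the start.
Tnfrsf1a, chr6:125349473-125349742, plus strand: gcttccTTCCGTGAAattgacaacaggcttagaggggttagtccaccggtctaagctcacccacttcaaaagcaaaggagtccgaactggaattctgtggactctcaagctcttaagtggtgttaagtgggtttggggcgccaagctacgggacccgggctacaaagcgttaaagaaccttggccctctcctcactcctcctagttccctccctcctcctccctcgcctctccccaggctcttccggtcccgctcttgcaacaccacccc
Tnfrsf1b, chr4:145246851-145247120, minus strand: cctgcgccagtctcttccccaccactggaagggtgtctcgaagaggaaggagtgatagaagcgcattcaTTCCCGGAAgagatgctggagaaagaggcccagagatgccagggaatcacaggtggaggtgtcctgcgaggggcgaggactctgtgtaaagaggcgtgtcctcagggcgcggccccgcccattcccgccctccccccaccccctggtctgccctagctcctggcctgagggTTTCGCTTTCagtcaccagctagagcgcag
Fas, chr19:34290409-34290678, plus strand: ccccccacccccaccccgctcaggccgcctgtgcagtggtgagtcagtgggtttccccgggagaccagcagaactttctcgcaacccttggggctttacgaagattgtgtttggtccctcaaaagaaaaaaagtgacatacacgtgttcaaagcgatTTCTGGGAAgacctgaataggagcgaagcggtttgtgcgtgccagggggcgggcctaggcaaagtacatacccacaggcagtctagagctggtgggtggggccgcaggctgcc
Ripk1, the second start, chr13:34002624-34002893, plus strand: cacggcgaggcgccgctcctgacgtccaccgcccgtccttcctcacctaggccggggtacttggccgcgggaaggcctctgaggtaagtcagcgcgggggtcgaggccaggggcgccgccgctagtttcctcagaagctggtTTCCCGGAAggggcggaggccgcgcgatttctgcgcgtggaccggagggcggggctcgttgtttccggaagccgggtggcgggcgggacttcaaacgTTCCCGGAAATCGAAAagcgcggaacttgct

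The GAS letters were present in 4 of the members' 11 windows (Tnfrsf1a, Tnfrsf1b, Fas and the second start of Ripk1) and occurred in 8.3% of all 32851 promoter windows. The interferon-stimulated core was present in 2 of these 4 windows. In that of Tnfrsf1b it ended 1 base before the start, and in that of Ripk1 it spanned the start and shared bases with a GAS match. It occurred in 3.44% of all windows. The NF-kB consensus was in none of the members' windows, against 8.46% of all windows. These matches describe letters only and were not measured as binding sites.

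Totals ran from 29652456 to 35607098 counts per library, and levels are given as CPM, the counts scaled to library size after TMM normalization. The groups were compared by the quasi-likelihood test of edgeR over the 18617 genes left by its low-count filter, and P values were adjusted over all of them by the Benjamini-Hochberg method. The limit of detection was set at 3 counts in a library, or 0.0875 to 0.0995 CPM, and covers counting error only. Pyramidal neuron markers were present in every library, with 8 genes summing to 5516 to 5659 CPM in the sham group and to 2508 to 3809 CPM in the BCAS group. Most of the sham sum came from Camk2a and Slc17a7, at sham means of 3292 and 1379 CPM. Choroid plexus markers ranged from 48.3 to 5987 CPM in all libraries, with both groups spread over this range.

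Every one of the 10 genes was higher in BCAS mice than in sham mice. All 10 had an adjusted P under 0.05, where 18% of all tested genes passed in this direction. The study's differentially expressed genes (DEGs) also needed an absolute log2 fold change above 1. This was met by 9 of the 10, where 8.47% of all tested genes were DEGs higher in BCAS mice, and Ripk1 was the exception at 0.95. All 10 were DEGs with library totals in place of TMM (Ripk1 at 1.03) or without BCAS mouse 2 (Ripk1 at 1.07). The number was 7 when any 1 sham mouse was left out, 8 without BCAS mouse 1 and 6 without BCAS mouse 3. In all 10 genes the lowest BCAS mouse lay above the highest sham mouse, which held for 25.3% of tested genes. Tnf, Ripk3 and Mlkl met the filter's cut in every BCAS library but in only 0, 2 and 1 sham libraries, in that order. The presence of Tnf among the tested genes thus already rested on a higher level in BCAS mice. That of Ripk3 and Mlkl rested on the BCAS libraries in part. The log2 fold changes ran from 0.95 to 4.71 with a median of 1.91, beside a median of 0.018 over all tested genes. Each of the 10 genes reached its highest CPM in BCAS mouse 3, which was also the highest library for 78% of the 3356 genes that rose.

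**Figure D1:**
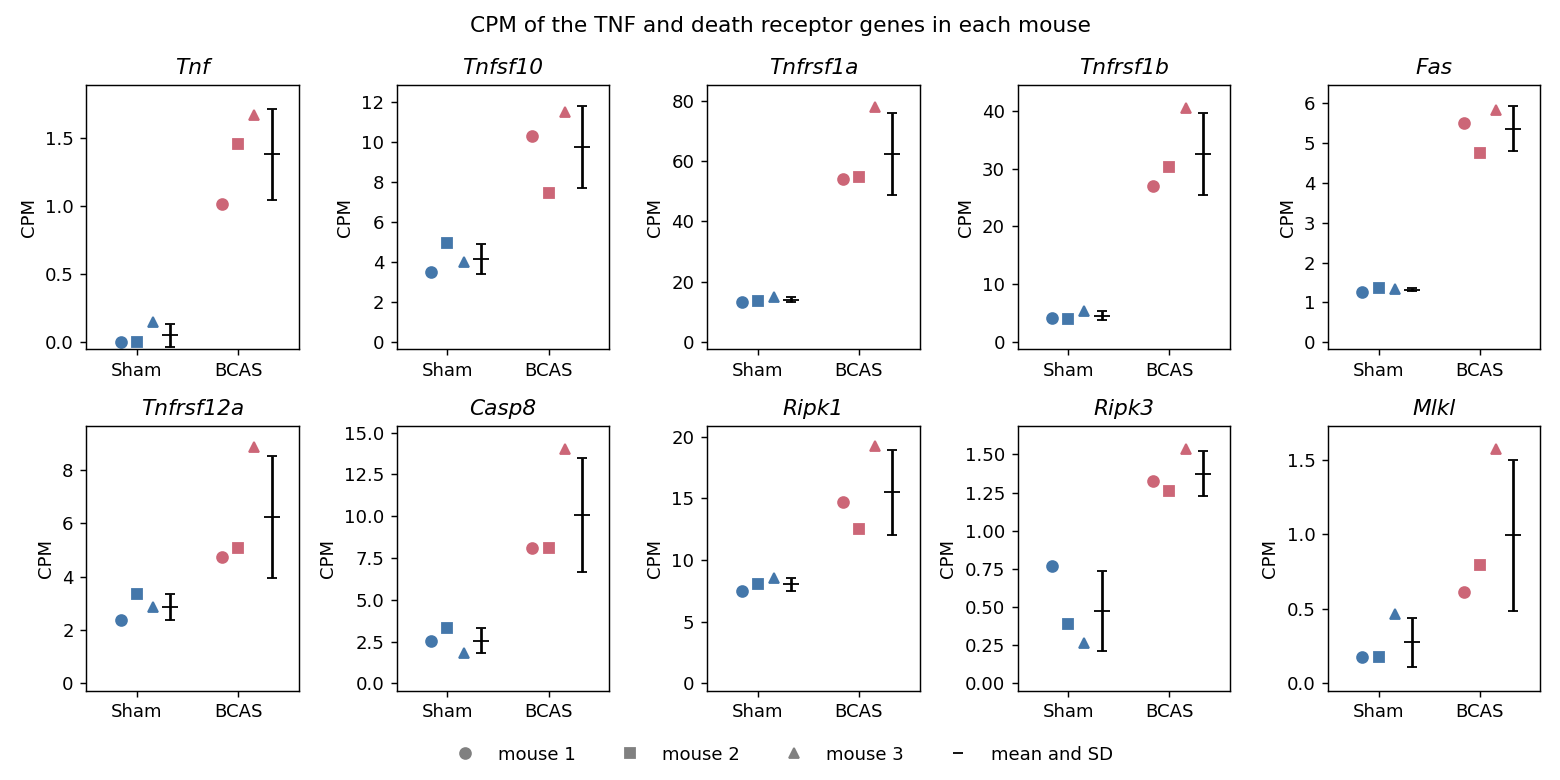
CPM of each of the 10 genes (vertical axes, linear and different for each gene) in the 3 sham mice (blue) and the 3 BCAS mice (red), with a symbol shape for each mouse number and the mean and SD in black. No BCAS mouse falls within the sham range for any gene, and BCAS mouse 3 is the highest in every panel.

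Tnf (ENSMUSG00000024401.14, chr17:35199381-35202007, minus strand) encodes the cytokine that binds both TNF receptors. Its counts were 0, 0 and 5 in sham mice 1 to 3 and 33, 44 and 52 in BCAS mice 1 to 3. Sham mice 1 and 2 were below the limit of detection and all BCAS mice were well above it. The mean level rose from 0.0486 ± 0.0842 CPM in the sham group to 1.38 ± 0.333 CPM in the BCAS group (SD, n = 3 each). The fitted log2 fold change was 4.71 (standard error, SE, 0.81; edgeR adjusted P = 0.00297). Its size rests on the 5 counts of sham mouse 3. Without that mouse the fitted value was 8.48, with both remaining sham mice at 0, and the level in BCAS mice was at least 15.5-fold higher than the mean limit of detection of those sham libraries.

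Tnfsf10 (ENSMUSG00000039304.11, chr3:27317028-27342427, plus strand) encodes TRAIL, the ligand of the death receptor Tnfrsf10b. It measured 3.48, 4.94 and 4.02 CPM in sham mice 1 to 3 and 10.3, 7.46 and 11.5 CPM in BCAS mice 1 to 3. BCAS mouse 2 was the lowest of its group and still 1.51 times the highest sham mouse. The groups differed by a log2 fold change of 1.23 (SE 0.21, edgeR adjusted P = 0.00263).

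Tnfrsf1a (ENSMUSG00000030341.17, chr6:125349362-125362484, plus strand) is the death domain receptor of TNF and was the most abundant of the 10 genes. It measured 13.4, 13.8 and 14.9 CPM in sham mice 1 to 3 and 54.2, 54.7 and 78.0 CPM in BCAS mice 1 to 3. The sham mice lay close together, and the lowest BCAS mouse was 3.64 times the highest of them. The log2 fold change was 2.15 (SE 0.15, edgeR adjusted P = 2.75e-05).

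Tnfrsf1b (ENSMUSG00000028599.10, chr4:145213463-145246870, minus strand) encodes TNF receptor 2, which binds membrane TNF and signals through TRAF2. It measured 4.13, 4.01 and 5.42 CPM in sham mice 1 to 3 and 27.0, 30.2 and 40.5 CPM in BCAS mice 1 to 3. Its gap was wider than that of Tnfrsf1a, with the lowest BCAS mouse at 4.97 times the highest sham mouse. Relative to sham mice, its log2 fold change was 2.85 (SE 0.19, edgeR adjusted P = 2.37e-05).

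Fas (ENSMUSG00000024778.12, chr19:34290659-34327770, plus strand) is the receptor of Fas ligand and recruits FADD directly. It measured 1.27, 1.35 and 1.34 CPM in sham mice 1 to 3 and 5.51, 4.74 and 5.83 CPM in BCAS mice 1 to 3. The mice of each group were close to each other, with an SD of 0.0434 CPM in the sham group and 0.562 CPM in the BCAS group. The log2 fold change was 2.02 (SE 0.20, edgeR adjusted P = 1.38e-04).

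Tnfrsf12a (ENSMUSG00000023905.15, chr17:23675445-23677468, minus strand) is the receptor of TWEAK, the product of Tnfsf12. It measured 2.36, 3.35 and 2.86 CPM in sham mice 1 to 3 and 4.74, 5.07 and 8.85 CPM in BCAS mice 1 to 3. BCAS mouse 3 stood apart from the other two, which were nearer to the sham range. Relative to sham mice, its log2 fold change was 1.12 (SE 0.27, edgeR adjusted P = 0.0146). The adjusted P was 0.0645 without sham mouse 1 and 0.0550 without sham mouse 3.

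Casp8 (ENSMUSG00000026029.14, chr1:58795374-58847503, plus strand) encodes the protease that starts death receptor apoptosis and that cleaves RIPK1 and RIPK3. It measured 2.51, 3.32 and 1.84 CPM in sham mice 1 to 3 and 8.09, 8.09 and 14.0 CPM in BCAS mice 1 to 3. BCAS mice 1 and 2 were nearly equal, and mouse 3 lay above both. The log2 fold change was 1.98 (SE 0.29, edgeR adjusted P = 0.00132).

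Ripk1 (ENSMUSG00000021408.15, chr13:34002363-34037147, plus strand) is the kinase at the branch point between NF-kB signalling and cell death. It measured 7.47, 8.02 and 8.57 CPM in sham mice 1 to 3 and 14.7, 12.5 and 19.3 CPM in BCAS mice 1 to 3. It had the smallest change of the 10 genes, at 0.95 on the log2 scale (SE 0.17, edgeR adjusted P = 0.00356). Exons of Gm17084 on the same strand cover 6.12% of its exonic bases, and exons of Serpinb6a on the other strand cover 2.89%. Reads on those bases could not be assigned to Ripk1.

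Ripk3 and Mlkl, the necroptosis kinase and its substrate, were expressed at low levels in both groups. Ripk3 (ENSMUSG00000022221.14, chr14:55784995-55788865, minus strand) had 26, 13 and 9 counts in sham mice 1 to 3 and 43, 38 and 48 counts in BCAS mice 1 to 3. The sham mice varied more than the BCAS mice, with 0.473 ± 0.263 CPM against 1.37 ± 0.146 CPM (SD, n = 3 each). The groups differed by a log2 fold change of 1.53 (SE 0.43, edgeR adjusted P = 0.0249). Mlkl (ENSMUSG00000012519.14, chr8:111311797-111338177, minus strand) had 6, 6 and 16 counts in sham mice 1 to 3 and 20, 24 and 49 counts in BCAS mice 1 to 3. Sham mouse 3 and BCAS mouse 1 were near each other, at 0.466 and 0.616 CPM, so the groups were barely apart. The log2 fold change was 1.84 (SE 0.55, edgeR adjusted P = 0.0332). Both calls depended on single mice. For Ripk3 the adjusted P rose to 0.0805 or 0.0770 when sham mouse 2 or 3 was left out, and to 0.0511 or 0.0747 when BCAS mouse 1 or 3 was left out. For Mlkl the adjusted P rose to 0.116 when sham mouse 1 was left out, to 0.108 for sham mouse 2 and to 0.141 for BCAS mouse 3.

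**Figure D2:**
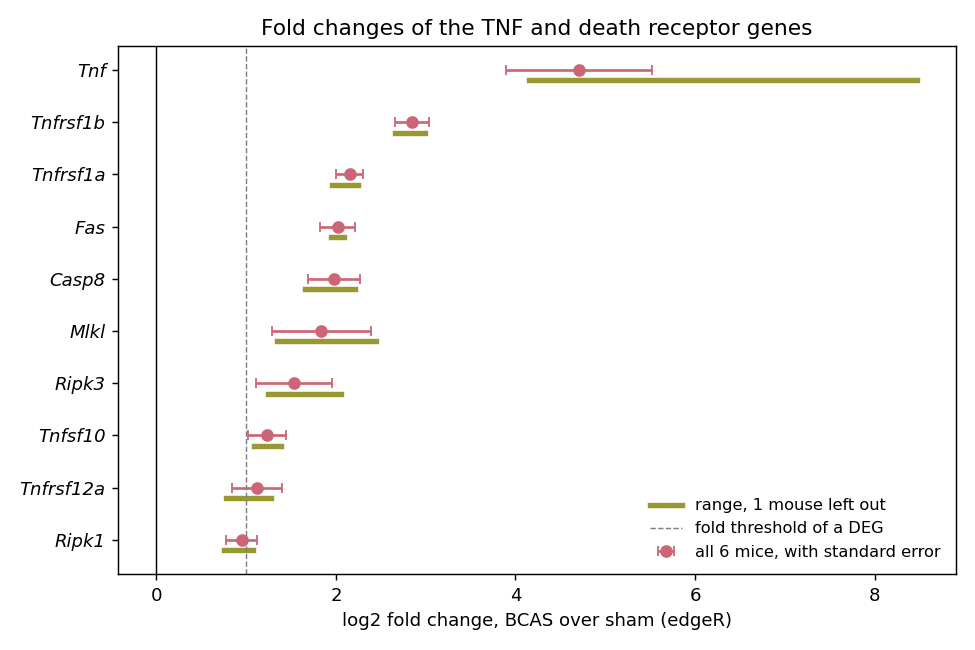
Log2 fold change of BCAS over sham mice (horizontal axis) for the 10 genes from edgeR, with its standard error (red) and the range when 1 mouse was left out (olive bar). All values lie to the right of 0, Ripk1 at 0.95 is left of the dashed line at 1, and the bar of Tnf extends to 8.48 where both remaining sham mice had 0 counts.

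Levels were compared between genes as CPM per kilobase of exon (RPKM). In sham mice Tnfrsf1a stood highest at 5.41 ± 0.306 RPKM (SD, n = 3), followed by Tnfrsf12a at 1.48 ± 0.257 and Tnfrsf1b at 1.18 ± 0.205 RPKM. The values of Tnfrsf12a and Tnfrsf1b overlapped between mice. Ripk1, Casp8, Tnfsf10 and Fas lay between 0.732 and 0.961 RPKM, and neighbours among these 4 overlapped. Ripk3, Mlkl and Tnf were lowest, at 0.206, 0.119 and 0.0296 RPKM, apart from Fas and with overlap between neighbours among these 3.

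In BCAS mice Tnfrsf1a was again highest, at 24.1 ± 5.24 RPKM, and Tnfrsf1b came next at 8.53 ± 1.85 RPKM (SD, n = 3 each), without overlap. Casp8, Tnfrsf12a and Fas followed at 3.48, 3.22 and 2.98 RPKM and were not separated from their neighbours among these 3. Ripk1 and Tnfsf10 had 1.86 and 1.85 RPKM. Tnf was at 0.842 RPKM, above Ripk3 at 0.600 and Mlkl at 0.432 RPKM, with overlap between neighbours.

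Ratios of counts per exonic base within a library do not depend on the normalization between libraries. These 6 ratios were chosen after the values of the genes were known, and an exact two-sided permutation test of 3 against 3 mice cannot go below P = 0.1. The ratio of Tnfrsf1b to Tnfrsf1a was 0.210, 0.198 and 0.247 in sham mice 1 to 3 and 0.337, 0.375 and 0.353 in BCAS mice 1 to 3 (exact permutation P = 0.1, adjusted P = 0.15 over the 6 ratios). Casp8 relative to Cflar, which encodes the caspase-8 inhibitor c-FLIP, went from 0.434 ± 0.0889 in the sham group to 0.772 ± 0.175 in the BCAS group (SD, n = 3 each, exact permutation P = 0.1, adjusted 0.15). No BCAS mouse fell within the sham range for either ratio. Tnfrsf1a relative to its adaptor Tradd went from 1.31 ± 0.0610 to 4.70 ± 0.784, and Casp8 relative to its adaptor Fadd from 1.34 ± 0.502 to 3.06 ± 0.591 (SD, n = 3 mice each), both with the same exact P. Ripk3 relative to Ripk1 overlapped between the groups, at 0.374, 0.177 and 0.111 in sham mice 1 to 3 and 0.328, 0.367 and 0.291 in BCAS mice 1 to 3 (exact permutation P = 0.4). Mlkl relative to Ripk3 also overlapped (exact permutation P = 0.8).

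**Figure D3:**
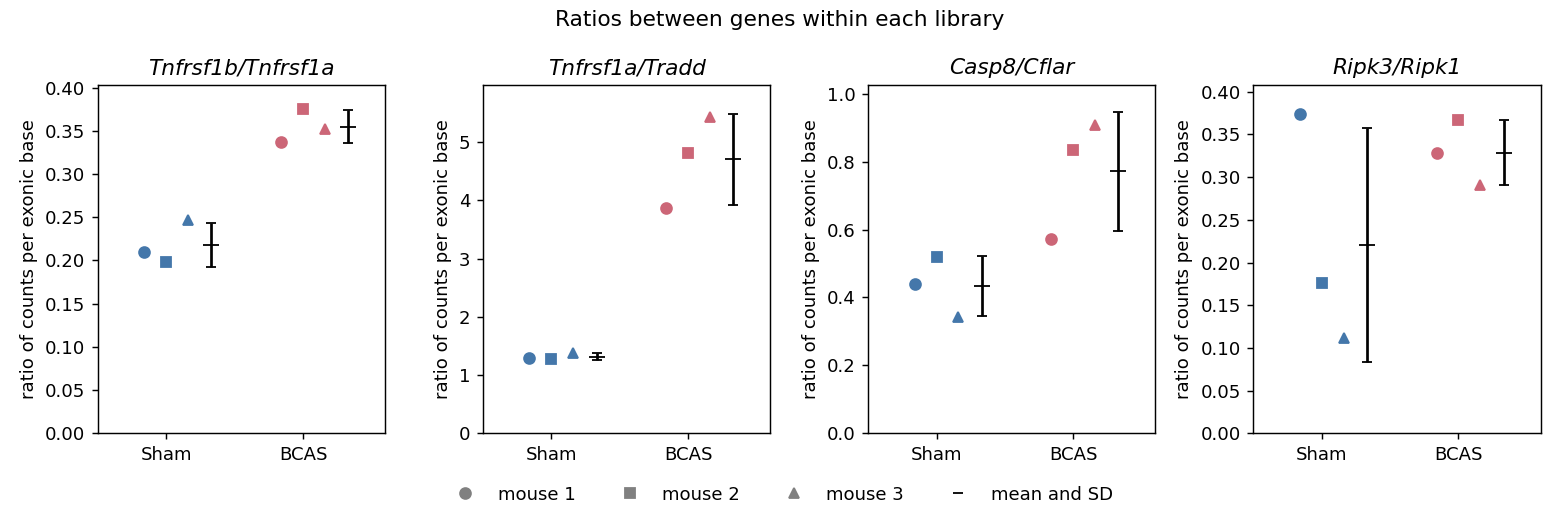
Ratio of counts per exonic base between pairs of genes (vertical axes, from 0) in each sham mouse (blue) and BCAS mouse (red), with mean and SD in black. Tnfrsf1b over Tnfrsf1a, Tnfrsf1a over Tradd and Casp8 over Cflar are higher in every BCAS mouse than in every sham mouse, and Ripk3 over Ripk1 overlaps.

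Further genes of the pathway were taken from lists by role, some of which also hold members. Beside the counts of each list stand the shares over all tested genes. At the same threshold, 18% of these were higher and 13.2% lower in BCAS mice. Of 18 TNF superfamily ligands, 12 were tested and 10 rose, with none lower. Without the members Tnf and Tnfsf10, 8 of 10 rose. Of the 12 tested genes, 6 met the filter's cut in every BCAS library but not in every sham library, so their presence rested at least partly on the BCAS libraries. The list's median log2 fold change was 1.79. Tnfsf8, the ligand of CD30, had 2, 0 and 0 counts in sham mice 1 to 3 and 105, 133 and 170 in BCAS mice 1 to 3, at least 49.3-fold higher than the limit of detection (edgeR adjusted P = 5.37e-05). Fasl, the ligand of Fas, had 2, 2 and 0 counts in sham mice and 19, 12 and 20 in BCAS mice, at least 6.11-fold higher (edgeR adjusted P = 0.00516). Ltb, a lymphotoxin subunit, and Tnfsf13b, the B cell factor BAFF, rose by 2.01 and 1.58 on the log2 scale. Tnfsf12, the TWEAK ligand of Tnfrsf12a, rose by 0.92 (edgeR adjusted P = 0.0324), but 48.3% of its exonic bases are shared with Tnfsfm13, and its counts are uncertain. The same holds for Tnfsf13, which rose by 1.22 (edgeR adjusted P = 0.0305) and shares 60% of its exonic bases with Tnfsfm13. The genes that did not pass were Eda, a ligand of skin appendage development, at a log2 fold change of -0.18 and Tnfsf9, the ligand of the costimulatory receptor 4-1BB, at 0.27.

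Of 28 TNF receptor superfamily genes, 26 were tested, of which 14 rose and 1 fell, with a median log2 fold change of 0.86. Without the 4 members, 10 of 22 rose. Over all tested genes, 13.2% were lower in BCAS mice at the same threshold, 2463 genes beside 3356 that were higher. These lower calls numbered 1449, 1412 and 1260 without sham mouse 1, 2 and 3, and library totals in place of TMM gave 1788 lower and 3859 higher. Of the 26, Cd40, Tnfrsf14 and Tnfrsf17 met the filter's cut in every BCAS library but not in every sham library. Their presence in the count and median rested at least partly on the BCAS libraries. Beside the 4 members, the largest changes among genes with a mean of at least 1 CPM were those of Tnfrsf14, the receptor HVEM (2.57, edgeR adjusted P = 8.61e-04), Tnfrsf13b, the receptor TACI (2.34, edgeR adjusted P = 9.44e-04), and Eda2r (2.04, edgeR adjusted P = 0.0135). Below that level, Tnfrsf17, the receptor BCMA, had 4, 2 and 7 counts in sham mice 1 to 3 and 26, 14 and 27 counts in BCAS mice 1 to 3 (log2 fold change 2.44, edgeR adjusted P = 0.00991). Tnfrsf10b, the mouse death receptor of TRAIL, rose from 0.955 ± 0.120 to 2.07 ± 0.797 CPM (SD, n = 3 each, log2 fold change 1.12, edgeR adjusted P = 0.0345). Tnfrsf21, death receptor 6, was the gene that fell, from 139.8 ± 8.57 to 116.7 ± 7.26 CPM (log2 fold change -0.26, edgeR adjusted P = 0.0347). The list had no lower call when scaled by library totals instead of TMM, with the replicate number as a block, or without any 1 mouse other than BCAS mouse 2. Tnfrsf25, death receptor 3, measured -0.35 and did not pass (edgeR adjusted P = 0.227).

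Of 27 tested genes whose proteins assemble on TNF receptor 1 or act in its signalling complex, 9 rose, 1 fell and 17 did not pass, with a median log2 fold change of 0.19. Traf1 and Birc3, which are themselves NF-kB targets, rose by 1.97 and 1.84 (edgeR adjusted P = 2.46e-04 and 1.15e-04). Traf5, a TRAF adaptor, rose by 1.10 and Traf2, which brings cIAP to the receptor, by 0.74 (edgeR adjusted P = 0.00222). Tnfaip3, the deubiquitinase A20 that restrains NF-kB, rose by 0.93 (edgeR adjusted P = 0.00339). Tradd, the first adaptor of TNF receptor 1, had 7.68 ± 0.185 CPM in sham and 9.55 ± 1.18 CPM in BCAS mice and did not pass (SD, n = 3 each, edgeR adjusted P = 0.118). Birc2, encoding cIAP1, measured 0.07 (edgeR adjusted P = 0.548) and Tab3, a binding subunit of the kinase TAK1, -0.16 (edgeR adjusted P = 0.259). Cyld, the deubiquitinase that removes linear and K63-linked chains, fell by 0.40 (edgeR adjusted P = 0.00530).

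In the apoptosis list, 9 of 19 tested genes rose, 1 fell and 9 did not pass, with a median log2 fold change of 0.30. Casp8 was the largest change, followed by its inhibitor Cflar, which rose from 25.5 ± 2.29 to 57.3 ± 13.2 CPM (SD, n = 3 each, log2 fold change 1.17, edgeR adjusted P = 0.00102). Fadd, the adaptor of Fas and caspase-8, rose by 0.74 (edgeR adjusted P = 0.0253). The survival gene Bcl2 rose by 0.81 (edgeR adjusted P = 0.00203). Cycs, encoding cytochrome c, fell by 0.49 (edgeR adjusted P = 0.00204), and Dffa, the inhibitor of the apoptotic DNase, measured -0.32 without passing (edgeR adjusted P = 0.0532).

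Among 10 necroptosis genes, 8 rose and none fell, 4 of them members, with a median log2 fold change of 1.13. Of the 10, Zbp1 was tested through the BCAS libraries alone. Ripk3 and Mlkl met the filter's cut in every BCAS library but not in every sham library. Both points bear on this count and median. Zbp1, an interferon-induced sensor that engages RIPK3, had 9, 1 and 2 counts in sham mice 1 to 3 and 196, 232 and 467 counts in BCAS mice 1 to 3 (log2 fold change 6.29, SE 0.59, edgeR adjusted P = 1.21e-04). Ticam1, encoding TRIF, an adaptor of toll-like receptors that binds RIPK1 and RIPK3, rose by 1.10 (edgeR adjusted P = 0.00200). Pgam5, a mitochondrial phosphatase, and Ppm1b, a phosphatase of RIPK3, measured -0.27 and -0.10 without passing, and the counts of Pgam5 are uncertain, since 58.1% of its exonic bases are shared with the opposite-strand gene Gm26718. Without sham mouse 2 or without BCAS mouse 3, 5 of the 10 genes passed.

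All 6 genes of TNF release rose, where 18% of all tested genes were higher in BCAS mice. Adam17, the protease that sheds TNF and its receptors, rose from 17.3 ± 1.21 to 45.9 ± 10.9 CPM (SD, n = 3 each, log2 fold change 1.41, edgeR adjusted P = 3.22e-04). Rhbdf2, the iRhom2 partner that carries ADAM17 to the cell surface in myeloid cells, rose by 1.57 (edgeR adjusted P = 1.59e-04), and Rhbdf1 by 0.91. Frmd8, which stabilizes iRhoms, and Adam10, a related protease, rose by 0.83 and 0.37. Timp3, the inhibitor of ADAM17, rose by 0.84 (edgeR adjusted P = 0.00700), with 21.3% of its exonic bases shared with the opposite-strand gene Syn3.

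Of 23 genes known to respond to TNF, 20 were tested, of which 18 rose and 1 fell, with a median log2 fold change of 1.79. Of the 20, Cxcl10, Ccl2, Ccl5 and Il1b met the filter's cut in every BCAS library but not in every sham library. Their presence in the count and median thus rested partly on the BCAS libraries. Among genes with a mean of at least 1 CPM, the chemokine genes Cxcl10, Ccl2 and Ccl5 had the largest changes, at 5.18, 3.94 and 3.93 (edgeR adjusted P = 1.07e-04, 0.0120 and 4.10e-04). Nfkbia, the inhibitor that NF-kB itself induces, rose by 0.63 (edgeR adjusted P = 0.0139). Sod2, the mitochondrial superoxide dismutase, fell by 0.28 (edgeR adjusted P = 0.0339), a call that was not made with library totals, with the replicate number as a block, or without any 1 mouse other than BCAS mouse 2. Junb measured -0.22 without passing. Many of these genes also respond to interferons and toll-like receptor ligands, and which signal raised them was not tested.

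**Figure D4:**
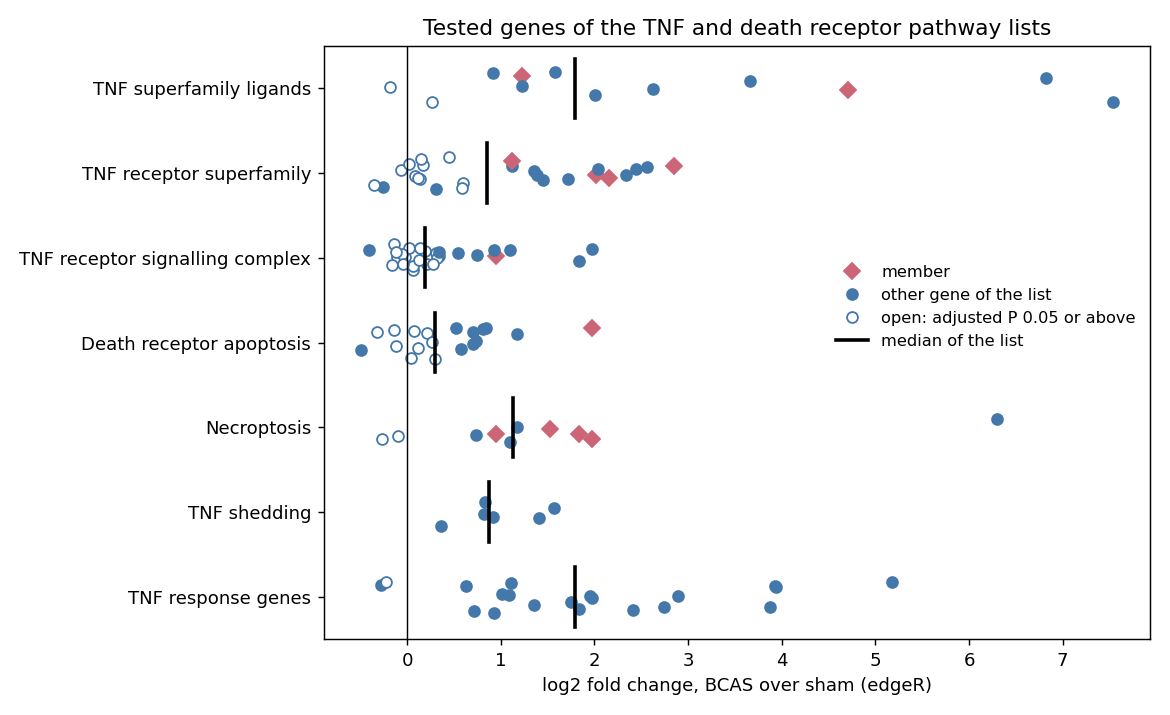
Log2 fold change of BCAS over sham mice (horizontal axis) for every tested gene of 7 pathway lists, with the members as red diamonds, other genes as blue circles, open circles for genes without an adjusted P under 0.05 and black bars for list medians. The bars run from 0.19 for the signalling complex to 1.79 for the ligands and the response genes.

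Markers of several cell types moved with the groups. For comparison, 18% of all tested genes were higher and 13.2% lower in BCAS mice at the same threshold. All 12 microglia markers rose, with log2 fold changes of 1.54 to 3.95, and their summed level went from 448 to 475 CPM in the sham group up to 3372 to 5638 CPM in the BCAS group. BCAS mouse 3 had the highest microglia sum, as it had the highest level of all 10 members. Its microglia sum was 5638 CPM beside 3807 CPM in BCAS mouse 2. The same mouse had the highest T and NK cell, monocyte and neutrophil, border-associated macrophage, oligodendrocyte, endothelial, pericyte and meningeal fibroblast sums. Its lead was small for endothelial (424.7 beside 420.7 CPM in BCAS mouse 1) and pericyte markers (298.3 beside 288.7 CPM in BCAS mouse 1). It was also small for meningeal fibroblast markers (406.5 beside 397.6 CPM in BCAS mouse 2). The pyramidal neuron sum was lowest in BCAS mouse 3, at 2508 CPM beside 3715 and 3809 CPM in BCAS mice 1 and 2. Astrocyte and choroid plexus sums were highest in BCAS mouse 1. The 10 members summed to 35.5 to 39.8 CPM in the sham group and to 126.3 to 182.8 CPM in the BCAS group. T and NK cell markers summed to 2.63 to 3.94 CPM in sham and 11.8 to 14.2 CPM in BCAS mice. Of the 8 that were tested 7 rose, but 6 of the 8 reached the filter through the BCAS libraries alone, so this count was largely fixed by the filter. The 9 monocyte and neutrophil markers went from sums of 0.928 to 2.57 CPM to sums of 6.28 to 12.7 CPM. Of the 4 that were tested 3 rose. Ly6c2 and Plac8 reached the filter through the BCAS libraries alone, and S100a9 met its cut in every BCAS library but not in every sham library. The neutrophil genes Ly6g and Elane were at or below 3 counts in every library. The other neutrophil genes overlapped between the groups. S100a9 had means of 0.440 CPM in sham and 1.06 CPM in BCAS mice and did not pass (edgeR adjusted P = 0.202). S100a8, not tested, had 0.147 and 0.706 CPM, and the granule genes Camp and Mpo, also not tested, had 0.205 and 0.314 CPM in sham against 0.0214 and 0.136 CPM in BCAS mice. Border-associated macrophage markers rose in 4 of 6 cases, from sums of 10.3 to 14.8 CPM to 25.7 to 33.5 CPM. All 8 astrocyte markers rose, with log2 fold changes of 0.41 to 3.29 and a median of 0.84, and 3 of them were DEGs. Their sums went from 3691 to 4041 CPM in the sham group to 8612 to 9246 CPM in the BCAS group. Much of this was Gfap, which went from a mean of 375 CPM to 3678 CPM. None of 8 oligodendrocyte markers passed. Endothelial markers rose in 5 of 8 cases, from sums of 288 to 308 CPM to sums of 376 to 425 CPM. Meningeal fibroblast markers rose in 4 of 6 cases, from 143 to 232 CPM up to 244 to 406 CPM, and pericyte and smooth muscle markers in 3 of 7, with overlapping sums. Of 8 pyramidal neuron markers 6 fell, as did 3 of 6 dentate granule markers and 5 of 7 interneuron markers, whose sums went from 885 to 991 CPM down to 583 to 682 CPM. None of 6 choroid plexus markers passed. The part of these shifts in cell markers in the changes of the 10 genes was not tested.

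**Figure D5:**
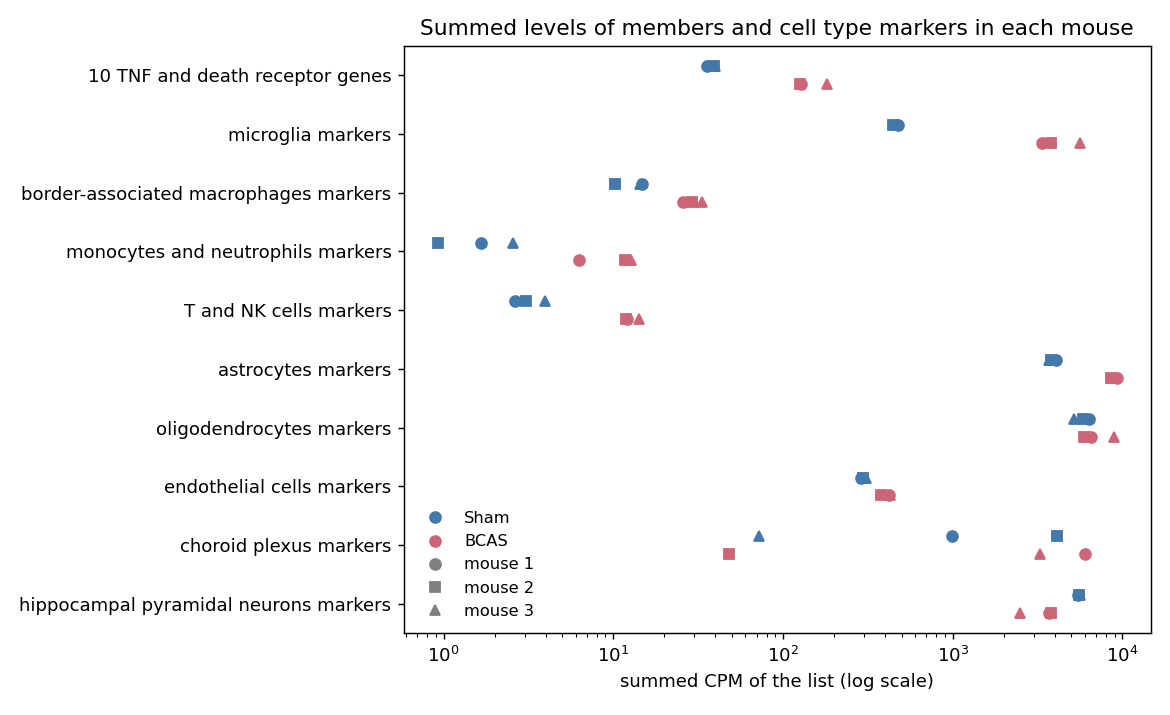
Summed CPM (horizontal axis, log scale) of the 10 TNF and death receptor genes and of cell type marker lists in each sham mouse (blue) and BCAS mouse (red), with a symbol shape for each mouse number. The microglia sums move from 448 to 475 CPM up to 3372 to 5638 CPM, pyramidal neuron sums move down, and choroid plexus sums spread widely in both groups.

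Genes with the profile closest to a member were sought by the root mean square difference over the 6 libraries of log2 CPM relative to the sham mean. Candidates were the 15624 tested genes outside the 10 with a mean of at least 1 CPM. Closest to Tnfrsf1a were Sh3tc1 and Rnase4, with differences of 0.053 and 0.060, and closest to Casp8 were Tor4a and Tor3a, with 0.092 and 0.12. Closest to Tnf were Cd48 and Fcgr1, with larger differences of 0.32 and 0.38. Tnf itself lay below the cut for candidates, so genes as scarce as Tnf could not be found. With sham counts of 0, 0 and 5, its profile also depends on the prior count of 2.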

How the data were processed

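Hippocampal RNA of 3 sham and 3 BCAS mice was sequenced as paired-end reads with a NEBNext Ultra library kit. The authors trimmed the reads with Trim Galore, aligned them to mm10 with HISAT2, and deposited raw counts per gene without normalization, 1 library per table. Per the file headers the counts were made with featureCounts 2.0.3 on GENCODE M20, ignoring strand, counting mates singly and leaving out reads with several alignments. The submitters' processing notes name version 1.6.3 and the study's methods name RefSeq genes. The gene identifiers and exon lengths used here are those in the tables. Symbols were matched for 54723 of 54752 genes.

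Groups were taken from the labels. Genes were kept by edgeR's filterByExpr (0.302 CPM in at least 3 libraries), normalized by TMM and compared with the quasi-likelihood test, without a block, in R 4.3.3 with edgeR 4.0.16. Log2 CPM used a prior count of 2. The common biological coefficient of variation was 0.161. Each library differed from the others of its group by more than sampling noise. The steps were tested on simulated data.

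The members, lists and tests were chosen with earlier results of these data known. Named are the 10 members, genes of fixed roles around them, from each list up to 3 further genes with the largest and 2 with the smallest change at a mean of at least 1 CPM, and the 2 closest profiles for Tnf, Tnfrsf1a and Casp8. Tnfsf9, Tnfsf13, Tnfrsf17, S100a8, S100a9, Camp and Mpo were added after their values were seen. Some genes that this rule names are not reported here. Alternatives were DESeq2 1.42.0, limma-voom (limma 3.58.1), glmTreat, RLE, library totals, 2 other filters, the replicate number as a block and leaving out each mouse. Counts halved, for mates counted singly, were added after seeing the data.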

Additional observations from a re-analysis of the deposited data

How the results depend on the processing

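Of 330 recomputed values, 302 kept their direction and side of the threshold or stayed within 1.5 times the count, and none reversed. All 10 genes passed, as higher, with DESeq2, limma-voom, RLE, library totals, both other filters and halved counts. Against a log2 fold change of 1 (glmTreat), 5 of the 10 passed. There Tnfsf10 (log2 fold change 1.23, adjusted P = 0.671), Tnfrsf12a (1.12, adjusted P = 1), Ripk1 (0.95, adjusted P = 1), Ripk3 (1.53, adjusted P = 0.603) and Mlkl (1.84, adjusted P = 0.466) did not pass, by edgeR. With glmTreat the calls were 4 for ligands, 6 for receptors, 2 for the signalling complex, 1 for apoptosis, 2 for necroptosis, 1 for TNF release, 9 for response genes and 818 over all genes, since this test asks for a larger change, against 5819 genes and 1762 DEGs without it. Leaving out 1 mouse, 8 to 10 of the 10 genes passed, log2 fold changes ran from 0.77 to 1.28 for Tnfrsf12a, 1.24 to 2.06 for Ripk3 and 1.34 to 2.45 for Mlkl, necroptosis calls from 5 to 9 and all calls from 3782 to 6646, lowest without sham mouse 3, with the cause not tested. Sham and BCAS mice of equal number did not deviate together, at residual correlations of 0.036, -0.314 and -0.158, so the numbers were not taken as pairs. With the replicate block all 10 genes passed, 9 of them as DEGs, and 4532 genes in all. With 6 to 49 counts per library, changes of Ripk3 and Mlkl are imprecise.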
